A study of Mus musculus with 6 samples.

Results

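Cytosolic ribosomal protein genes encode the proteins that, with the ribosomal RNAs, build the large and the small subunit of the ribosome outside mitochondria. They were chosen by symbol: Rpl or Rps with a number and an optional a, x or l, plus Rplp0, Rplp1, Rplp2 and Rpsa. The rule matched 81 rows of the table, and 77 of them (45 of the large and 32 of the small subunit) reached a sum of 10 counts over the 6 retinae, out of 16904 genes tested and 24062 in the table. One mRNA library had been made from each of 3 Rb1/p107/Hells triple knockout (TKO) and 3 Rb1/p107 double knockout (DKO) mouse retinae at postnatal day 21. All mice were of C57BL/6 background by the labels (C57BL/6N in the methods) and carried Chx10-Cre, floxed Rb1 and a germline deletion of Rbl1, which encodes p107, and the TKO mice also carried floxed Hells, a chromatin remodeler of the SNF2 family. DKO retinae served as the controls, and both groups lack Rb1 and p107. Chx10-Cre acts in retinal progenitors in a mosaic pattern, so each library also holds RNA of cells that did not recombine. The sources do not say whether the 3 retinae of a group came from separate litters, so p-values measure the spread between these retinae only.

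Each ribosome carries 1 copy of most of these proteins, and cells therefore make them in matched amounts. Most of their mRNAs begin with a 5′ terminal oligopyrimidine (TOP) stretch, a C followed by further C and T bases, through which mTORC1 and LARP1 control their translation. Transcription of the genes is high in growing cells, and Myc is a well known activator. In the retina, rod photoreceptors are the most numerous cells and renew their outer segments throughout life.

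The pyrimidine stretches near the annotated starts are shown here because they occur in more of the members than of all coding genes, although not in all members. Sequences are from the first exon of the chosen GENCODE vM21 transcript in GRCm38, 5′ to 3′, with the longest C-begun run of pyrimidines within 60 bases of the annotated start in capitals.
Rplp0, chr5:115559472-115559492, plus strand: gcctggttCTCCTataaaagg
Rplp1, chr9:61914523-61914542, minus strand: gatCTTTTCCTCagctgccg
Rplp2, chr7:141447370-141447384, plus strand: gggagCTgtggagcc
Rpl10, chrX:74270849-74270871, plus strand: gggagcgtCTCTTTTCCTCTggc
Rpsa, chr9:120127705-120127730, plus strand: cggaagttCTCCCTTTTTgcttagcc
Rpl4, chr9:64173405-64173433, plus strand: gagcgtggCCTTCTCCTCTCCCCgtcatg
Rpl10a, chr17:28328574-28328599, plus strand: gcgctctgCCTTCTTTCCggtttccg
Rpl9, chr5:65391385-65391408, minus strand: aagacgttCTCTCTTTgccccatc
The run of Rpl4 was 15 bases long, that of Rplp1 9 bases and that of Rplp0 5 bases. They began at bases 39, 4 and 14 of the annotated transcripts. Rpl4 also has a shorter run of 8 pyrimidines at its annotated first bases, which is not in the stretch shown. Shares of genes with a run were counted in the spliced transcript, without the limit to the first exon. Among the 76 members whose chosen transcript is protein-coding, 39 (51.3%) had a run of 8 or more bases in its first 60 bases. This compares with 2393 of 15673 protein-coding genes tested (15.3%). Over 15 combinations of window and run length, chosen with the sequences in view, the members' share was between 1.67 and 5.09 times that of all coding genes. Whatever the place of the longest run, 9 of 77 transcripts (11.7%) had C and at least 4 further pyrimidines at their annotated first bases, against 2.21% of coding genes tested. Annotated starts may lie upstream of the starts used in retina, which these counts do not show. In RefSeq promoter windows (GRCm38.p6), which run from 250 bases before to 50 bases after a gene's start and were matched for 57 members, 31 members (54.4%) held the letters CCGGAA on either strand, against 26.5% of 12429 genes tested. The letters AAGATGG were held by 9 members (15.8%), against 7.69% of those genes.

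Counts summed to 12083082, 12888233 and 10343907 in TKO retinae 1, 2 and 3, and to 12635061, 13455972 and 14203098 in DKO retinae 1, 2 and 3. Hells had a mean of 532 ± 142 normalized counts in the DKO group and 70.9 ± 11.5 in the TKO group (SD, n = 3 each), so the libraries followed their labels. Rb1 and Rbl1, altered in both groups, had log2 fold changes of 0.34 and 0.13 (adjusted p = 0.0388 and 0.839 by edgeR's quasi-likelihood test). The Rb1 call was lost with total counts only (adjusted p = 0.176 from edgeR) and without TKO 1, TKO 2, DKO 1, DKO 2 or DKO 3 (adjusted p = 0.0747 to 0.129). Rod genes, which define the main cell type of the tissue, were present in every library. Of 10 rod markers, 10 were higher in TKO retinae, and their summed share of all counts was 5.25%, 4.59% and 2.85% in TKO against 1.06%, 1.05% and 1.90% in DKO retinae. Of 10 markers of cycling cells, 10 were lower in TKO retinae, with a median log2 fold change (log2FC, TKO over DKO) of -2.57, and their summed level was 145 to 363 CPM in TKO and 730 to 1411 CPM in DKO retinae, where CPM is the count scaled to a common library total. Pcna, the sliding clamp of DNA replication, was the most abundant gene of that list. Of 8 microglia markers, 5 were lower, with Csf1r the most abundant. Of 7 Müller glia markers 3 were higher and 1 lower, of 7 bipolar markers 1 was higher, of 5 retinal pigment epithelium markers 1 was higher, and 0 of 7 amacrine and 0 of 7 ganglion cell markers were called. Of 5 blood markers, the 4 globin genes, which define red blood cells, were at 0 in every library, and Alas2, an enzyme of heme synthesis in red cell precursors, was higher in TKO retinae (log2 fold change 1.77, adjusted p = 0.00942 from edgeR). Over all marker lists, those of the next paragraph included, 19 genes were called higher and 16 lower. With 1 retina left out, 8 to 21 were higher, fewest without DKO 2, and 5 to 19 were lower, fewest without TKO 2.

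A pair of libraries stood apart for the values below. TKO retina 2 held 336 CPM of 11 skeletal muscle genes, a list chosen after seeing the data, where the other 5 retinae held between 10.1 and 13.7 CPM. Its 8 lens markers summed to 225 CPM against between 37.8 and 40.6 CPM in the other TKO and 8.52 to 9.18 CPM in DKO retinae. DKO retina 2 had the highest level of 39 of the 74 ribosomal protein genes with at least 100 normalized counts over the 2 group means. The retinae also differed in sex: Xist, the RNA of the inactive X chromosome, was counted 12481 times in TKO 2, 11531 times in TKO 3 and 15051 times in DKO 3, and at most 7 times in the others. The part of cell composition, carried tissue and sex in the values below was not tested except where a value without a library or with a sex term is given. In bulk tissue, fewer cells of a type and less RNA per cell cannot be told apart.

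Ribosomal protein mRNAs made up 1.15%, 1.17% and 1.24% of all counts in TKO retinae 1, 2 and 3 and 1.36%, 1.47% and 1.33% in DKO retinae. The groups did not overlap, with means of 1.19 ± 0.0458% for TKO and 1.39 ± 0.0747% for DKO (SD, n = 3 each). The rod marker share was higher in each TKO retina than in any DKO retina, and with the 10 rod genes left out of the total the shares were 1.24 ± 0.0316% and 1.41 ± 0.0708%. A share of all counts falls when other mRNAs take more of the library. After TMM scaling, which sets libraries to the same level over most genes, the median level of the members relative to each gene's own mean was -0.0364, -0.0175 and -0.0401 (log2) in TKO retinae 1, 2 and 3. In DKO retinae it was -0.0218, 0.110 and 0.00794. On that scale the groups overlapped, and DKO 2 was the one library set apart.

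**Figure D1:**
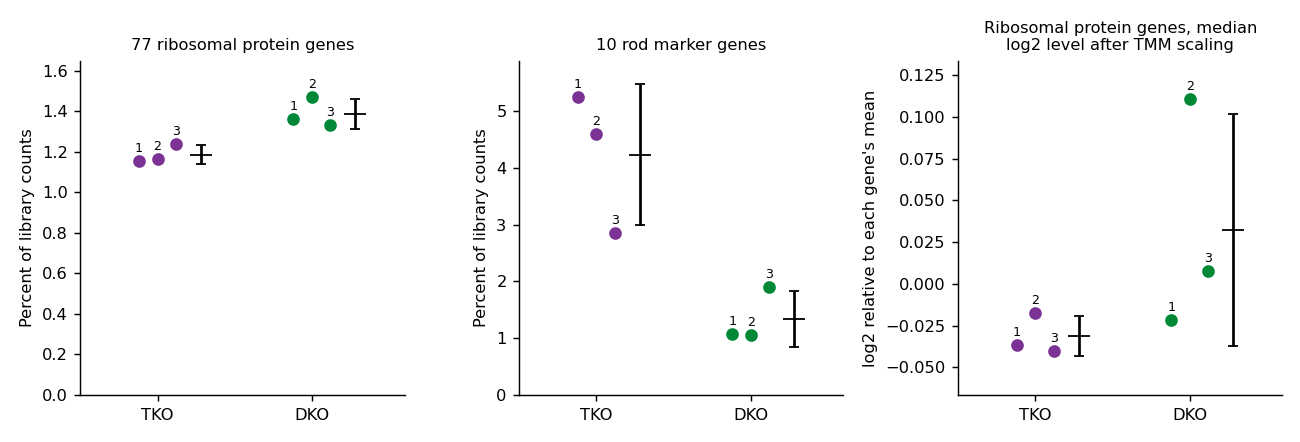
Percent of all counts on the 77 ribosomal protein genes (left) and on 10 rod marker genes (middle), and median log2 level of the 74 better-detected members after TMM scaling (right). Each point is a retina, numbered by replicate, with the group mean and SD beside it. Shares do not overlap between groups in the left and middle panels, whereas in the right panel DKO 1 lies among the TKO retinae and DKO 2 stands above all others.

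The study compared TKO with DKO retinae to ask what Hells contributes to gene expression in Rb1/p107-deficient retina. Of the 77 members, 0 were called higher and 2 were called lower in TKO retinae at an adjusted p of at most 0.05 (edgeR's quasi-likelihood test, Benjamini-Hochberg adjustment over 16904 genes, no minimum fold change). That is 2.60% of the members, where 16.6% of all genes tested were called in either direction and 9.2% were called lower. At an unadjusted p under 0.05 from edgeR, 13 of 77 members passed, against 5592 of 16904 genes, a smaller share of the members than of all genes. DESeq2 called 4 members lower and 0 higher, where it called 19.1% of all genes in either direction. With the study's 3 criteria, which include a change of at least 2-fold, 0 members were called, against 6.35% of all genes. All 3 TKO retinae lay below all 3 DKO retinae in 17 members (22.1%), against 20.6% of all genes, and above them in 3 members, against 18% of all genes. The median log2FC was -0.06 over the members and -0.01 over all genes tested, and 55 members (71.4%) were below 0, against 51.2% of all genes. Without DKO 2 the medians were -0.00868 and -0.00885, and 0 members and 3.88% of all genes were called. Without TKO 2, the library with muscle RNA, the median of the members was -0.07, and 0 members and 4.25% of all genes were called. The count was also 0 without TKO 1 or DKO 1, where 7.8% and 4.87% of all genes were called. It was 2 without TKO 3 (Rpl10 and Rplp0) and 5 without DKO 3 (Rpl10, Rpl39, Rplp0, Rps12 and Rps19), where 21.4% and 19.2% of all genes were called.

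The counts measured these genes closely. The 95% interval of the fold change lay within 1.5-fold in either direction for 69 of the 77 members (89.6%), against 46.5% of all genes. Among genes with at least 100 normalized counts over the 2 group means, it did so for 93.2% of 74 members and for 60.8% of 12900 genes. The median standard error was 0.0849 for the members and 0.149 for all genes (log2). An interval can cross this bound by being wide or by lying far from 0, so the share depends on fold change as well as precision. Rplp0, Rpl10, Rps26 and Rps27l crossed it with standard errors of 0.0916, 0.103, 0.113 and 0.125, below the median of all genes. Their fold changes were the lowest of the 74 members. The other exceptions were Rps4l (standard error 0.265) and 3 genes with few counts, Rpl34, Rpl3l and Rps27. The fold changes of the 74 members ran from -0.41 to 0.21 (log2).

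**Figure D2:**
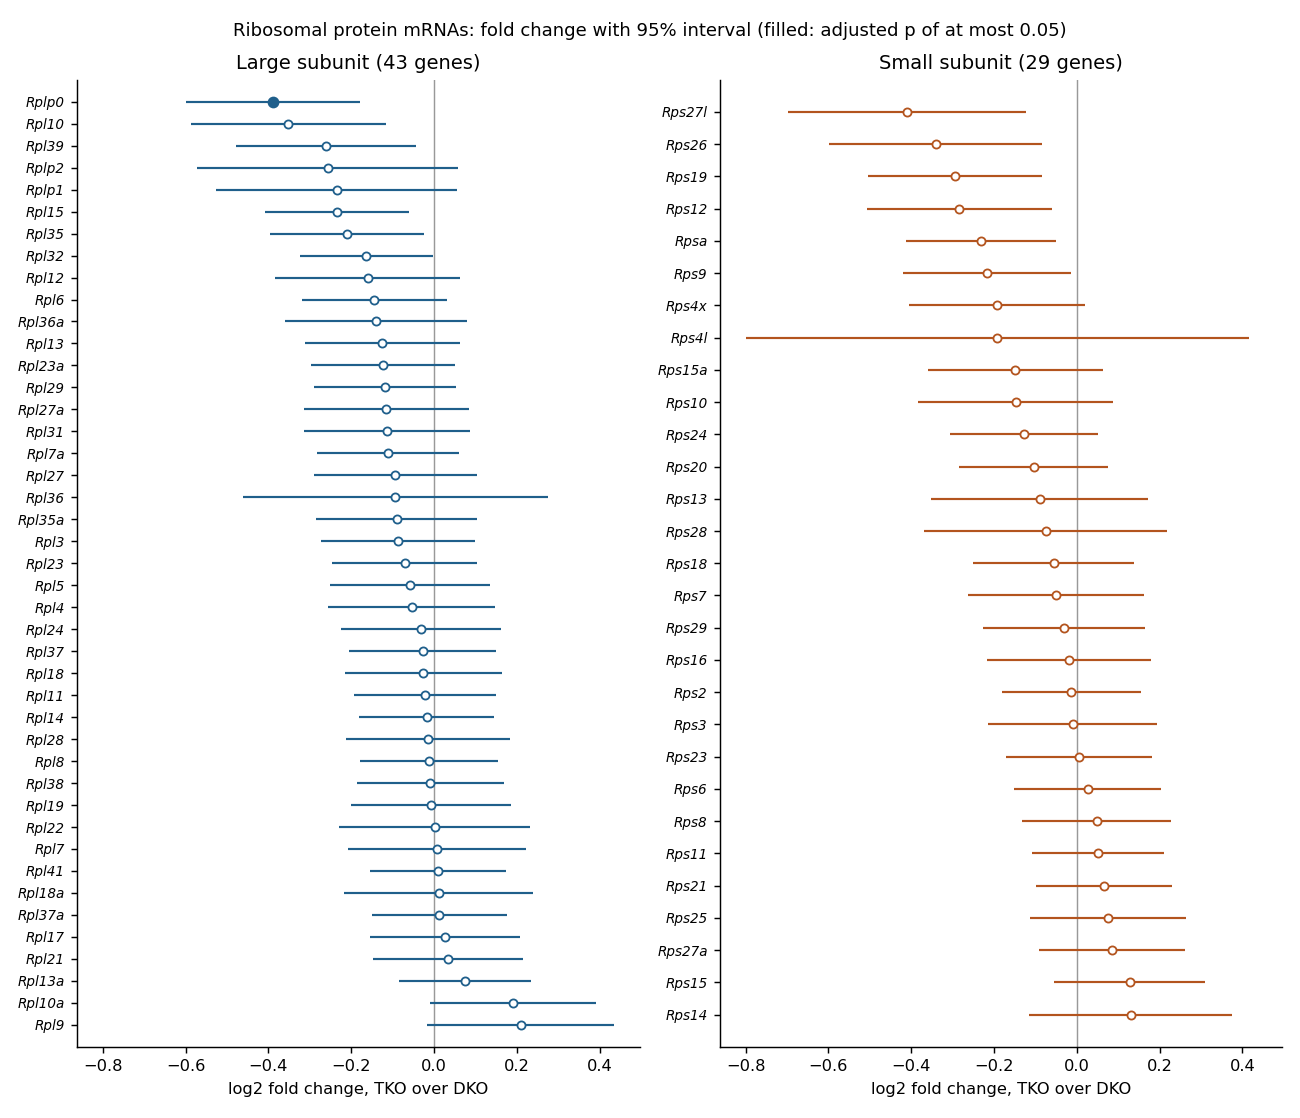
Log2 fold change (TKO over DKO, x axis) of 43 large subunit and 29 small subunit genes with at least 100 normalized counts over the 2 group means, sorted by value, with 95% intervals from edgeR. The filled point is Rplp0, with an adjusted p of at most 0.05. All values lie between -0.41 and 0.21.

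Rplp0, the large subunit protein that anchors the P stalk, was the member with the smallest p. Its normalized counts were 3201, 3463 and 3728 in TKO and 4443, 4816 and 4350 in DKO retinae. Every TKO retina lay below every DKO retina, with means of 3464 ± 264 and 4536 ± 247 (SD, n = 3 each). The log2FC was -0.39 (standard error 0.0916, 95% interval -0.60 to -0.18, adjusted p = 0.0249 from edgeR), or 23.6% lower. The gene lies on chr5:115559467-115563727 on the plus strand of GRCm38. The call held without TKO 3 and without DKO 3 (adjusted p = 0.0202 and 0.0287 from edgeR) and was lost without TKO 1, TKO 2, DKO 1 or DKO 2, where the adjusted p was 0.0878, 0.0984, 0.0679 and 0.103 and the log2FC was -0.34, -0.39, -0.40 and -0.34. It also held with sex as a term (adjusted p = 0.0448 from edgeR). With a block for the replicate number the call was lost at a log2FC of -0.39 (adjusted p = 0.0719 from edgeR). Rplp1 and Rplp2 encode the acidic proteins that bind Rplp0 as dimers and recruit the translational GTPases. Rplp1 had 1858, 2536 and 2080 normalized counts in TKO, against 2271, 2592 and 2758 in DKO retinae (log2FC -0.24, adjusted p = 0.234 from edgeR). Rplp2 had 681, 993 and 949 in TKO and 983, 1048 and 1103 in DKO retinae (-0.26, adjusted p = 0.229 from edgeR). The groups overlapped in both, and TKO 1 was the lowest library for all 3 stalk genes.

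Rpl10, a late-joining protein of the large subunit whose gene is on the X chromosome, had the second smallest p of the large subunit. It had 2373, 2383 and 2835 normalized counts in TKO, against 3296, 3444 and 2943 in DKO retinae, with no overlap, and a log2FC of -0.35 (standard error 0.103, adjusted p = 0.0505 from edgeR, 0.0233 from DESeq2). Of its 100-base transcript windows, 91.6% are also found in transcripts of 10 other genes, so read pairs within those windows do not tell Rpl10 from its copies. By the same measure Rplp0 shares 18.3%. Rpl15 and Rps19, in which mutations cause Diamond-Blackfan anaemia, had log2FC values of -0.23 and -0.29 (adjusted p = 0.0691 and 0.0625 from edgeR). Rps26, which lies near the mRNA exit, had 557, 738 and 690 normalized counts in TKO, against 789, 856 and 869 in DKO retinae (-0.34, adjusted p = 0.0733 from edgeR). In each of these 3 genes the TKO retinae lay below the DKO retinae without overlap, and the test did not pass. With sex as a term, Rps26 passed (log2FC -0.42, adjusted p = 0.0382 from edgeR). Rpl10, Rpl15 and Rps19 did not pass in that fit (-0.34, -0.24 and -0.24, adjusted p = 0.101, 0.115 and 0.114 from edgeR).

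Among the most abundant members, most fold changes were close to 0. Rpl4, with the largest mean of the large subunit, had 5996, 5922 and 5753 normalized counts in TKO, against 5773, 6545 and 6023 in DKO retinae, a log2FC of -0.05 with a 95% interval from -0.26 to 0.15. Rpl3, at the peptidyl transferase centre, had a log2FC of -0.09 (interval -0.27 to 0.10), and Rpl7 had 0.01 (-0.21 to 0.22). In the small subunit, Rps3, at the mRNA entry, had -0.01 (-0.22 to 0.19), and Rps6, the substrate of S6 kinase, had 0.03 (-0.15 to 0.20). Rpsa, which has the largest mean of the small subunit and is also known as the laminin receptor precursor, had 4592, 4416 and 4501 normalized counts in TKO, against 5254, 5434 and 5174 in DKO retinae, with no overlap (-0.23, adjusted p = 0.0805 from edgeR). Rps4x had -0.19 (interval -0.41 to 0.02).

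Among the 74 members with at least 100 normalized counts over the 2 group means, the highest values above 0 were those of Rpl9 and Rpl10a. Rpl9 had 4705, 3858 and 3941 normalized counts in TKO, against 3653, 3678 and 3487 in DKO retinae, with no overlap and TKO 1 far above the rest (log2FC 0.21, adjusted p = 0.178 from edgeR). Rpl10a had 2394, 2351 and 2040 in TKO and 1936, 1927 and 2078 in DKO retinae (0.19, adjusted p = 0.166 from edgeR), and its groups overlapped. Rpl10a shares 87.1% and Rpl9 87.0% of their transcript windows with other genes, the closest being Rpl10a-ps1 and Rpl9-ps6. In the small subunit, Rps14, Rps15 and the ubiquitin fusion gene Rps27a had log2FC values between 0.09 and 0.13. Rpl13a was 2778 ± 29.97 for TKO and 2638 ± 36.8 for DKO (SD, n = 3 each), a log2FC of 0.07 with no overlap and an adjusted p of 0.491 from edgeR.

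**Figure D3:**
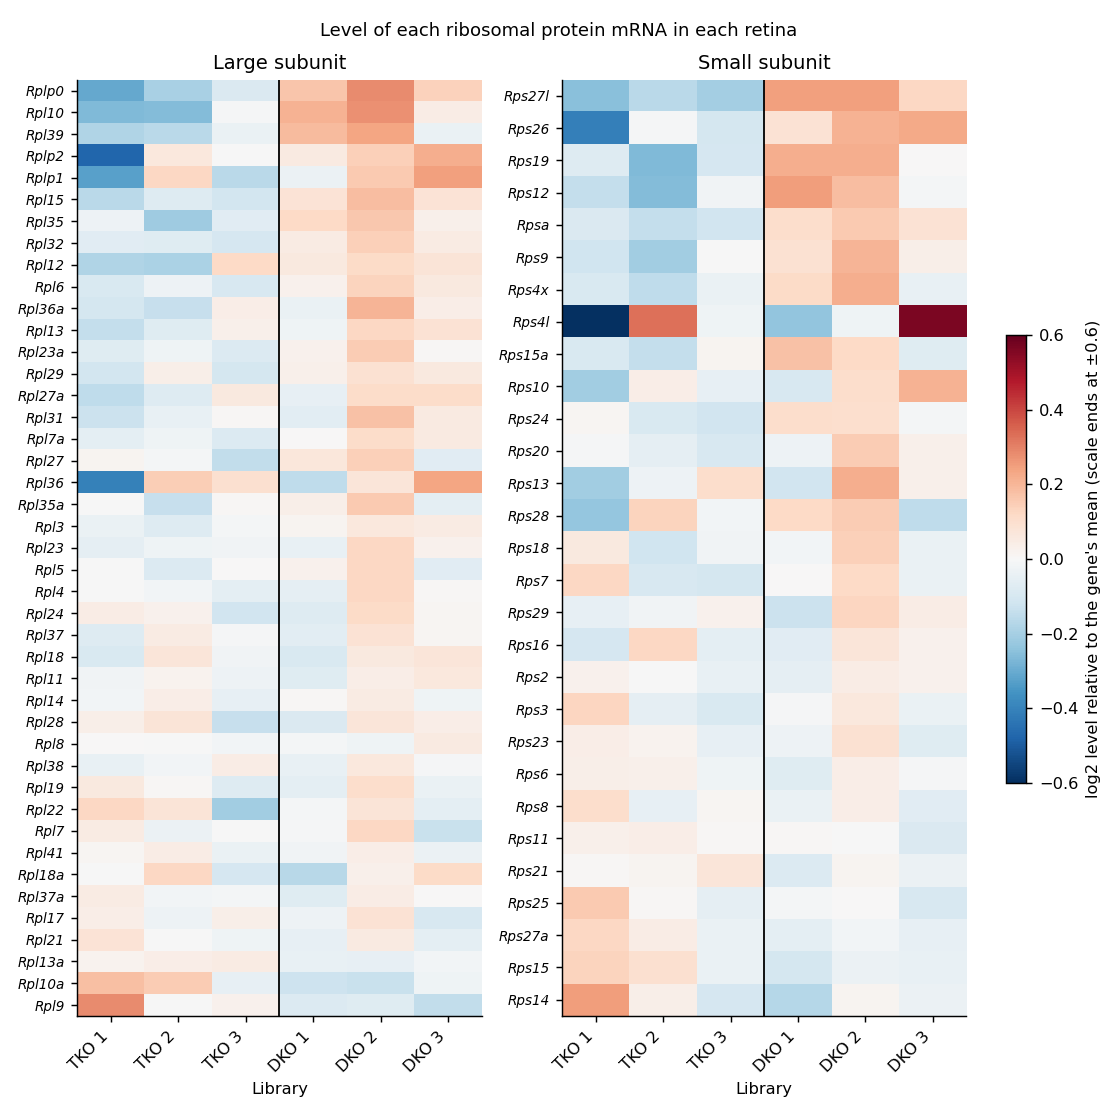
Level of each of 72 ribosomal protein mRNAs in each retina (columns, TKO left and DKO right of the line), as the log2 difference from the gene's own mean after TMM scaling. Genes are sorted by fold change within each subunit. The upper rows are lower in the TKO columns, most lower rows are pale throughout, and the DKO 2 column is the reddest.

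The 4 X-linked members were all below 0, with a median log2FC of -0.23 and 0 called, and of the 606 X-linked genes tested 58.7% were below 0 and 16.3% were called in either direction, with a median of -0.09. Rpl39 had 815, 825 and 898 normalized counts in TKO, against 1054, 1090 and 899 in DKO retinae (-0.26, adjusted p = 0.0962 from edgeR), with the TKO 3 and DKO 3 values less than 1 normalized count apart. Rpl36a had -0.14. TKO 3 and DKO 3, the nearest TKO and DKO retinae in Rpl39 and in Rpl10, both had high Xist, and so did TKO 2, which was among the lowest in both genes.

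Paralogs and low members need their own account, since several were close to 0. Rps27l, a paralog of Rps27 and a target of p53, had 136, 145 and 141 normalized counts in TKO, against 193, 193 and 177 in DKO retinae, with no overlap, the lowest log2FC of the 74 members (-0.41, adjusted p = 0.0576 from edgeR). Rps27 itself had 2, 1, 5, 4, 6 and 5 counts in TKO 1 to 3 and DKO 1 to 3. Of its transcript windows, 98.4% occur in transcripts of other genes, among them the retrocopy Rps27rt. Rpl34 had 14 counts in all, Rpl30 had 7, and Rpl26 had 0, which allows up to 3 counts a library for counting error alone. These 3 genes and Rps27 encode core proteins of the ribosome, so their counts may not measure their expression, and the part of read or symbol handling in the counting was not tested. Rpl34, Rpl30 and Rpl26 share 22.5%, 53.5% and 36.8% of their windows with other genes. Rpl10l and Rpl39l, paralogs best known from testis, had 0 and 1 counts. Rpl3l, the striated muscle paralog of Rpl3, had 2, 21 and 4 counts in the TKO libraries and 4, 1 and 4 in the DKO libraries, and the 21 counts were in TKO 2, the library with 336 CPM of muscle genes. Its fitted log2FC was 1.85 (adjusted p = 0.187 from edgeR) and 0.40 without that library (adjusted p = 0.802). Rps4l had 251, 482 and 377 normalized counts in TKO, against 326, 376 and 566 in DKO retinae, the largest standard error of the 74 members (0.265), and an adjusted p of 0.655 from edgeR. The annotation lists it as a transcribed processed pseudogene.

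Per kilobase of the chosen transcript, the 74 members had a median level of 188 CPM per kb in DKO retinae and ran over 18.3-fold, with CPM taken on TMM-scaled library sizes. Rps24 was highest at 424 ± 18.9, followed by Rps15 at 411 ± 11.0 and Rplp1 at 403 ± 39.2 CPM per kb (SD, n = 3 each), which do not differ beyond their spread. In the whole order, only 10 of 73 neighbouring pairs did not overlap in the 3 DKO retinae. Rps20, Rps27l, Rps4l and Rps15a were lowest at 23.2, 29.7, 35.5 and 41.0 CPM per kb. The chosen transcripts of Rps20 and Rps15a are 3706 and 5179 bases long, where the median of the members is 780 bases, so their levels per kb are understated if shorter forms are used. The order of the mean levels was nearly the same in TKO as in DKO retinae (Spearman's rho 0.985 across the 74 genes, which share libraries, lengths and base composition).

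**Figure D4:**
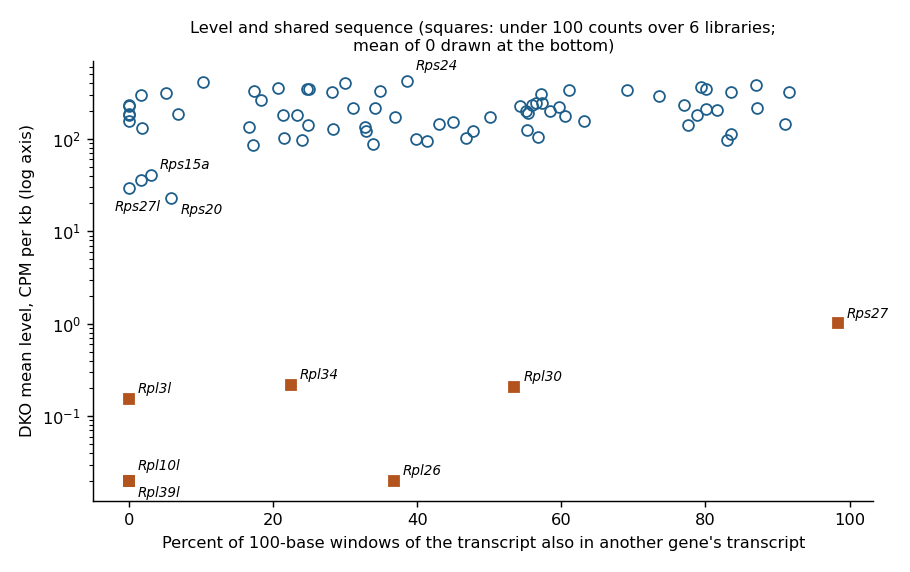
Mean level in DKO retinae (CPM per kb, log axis) of the 81 matching genes against the percent of 100-base windows of the transcript that also occur in another gene's transcript. Circles are genes with at least 100 counts over the 6 libraries and squares are the 7 with fewer, with a mean of 0 drawn at the bottom. The 7 low genes lie at 0% to 98.4% sharing, below 2 CPM per kb, and the other 74 lie above 20 CPM per kb over nearly the same range of sharing.

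Of 7 genes of ribosomal proteins, ribosome-bound proteins or paralogs whose symbols the rule does not match, 0 were called and 6 were below 0, with a median log2FC of -0.13. Rps3a1 had 3453, 3403 and 3745 normalized counts in TKO, against 3921, 4196 and 3765 in DKO retinae (-0.16, adjusted p = 0.215 from edgeR). Rack1, the scaffold at the head of the small subunit, listed under its older symbol Gnb2l1, had -0.13, and Fau, whose ribosomal protein is made as a fusion with a ubiquitin-like protein, had 0.00. The paralogs Rpl7l1, Rpl36al and Rpl22l1 had -0.23, -0.18 and -0.06. Ribosomal protein pseudogenes with at least 10 counts numbered 5, and 0 of them were called. The 45S precursor of ribosomal RNA (Rn45s), of which an mRNA library keeps only a remainder, had between 10932 and 19681 counts (0.32, adjusted p = 0.290 from edgeR).

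Calls in the other translation lists are read against the 16.6% of all genes called in either direction and the 9.2% called lower. Of 77 mitochondrial ribosomal protein genes 0 were called, with a median log2FC of 0.04. Of 35 initiation factor genes 0 were called, with a median of 0.03, and Eif3l, a subunit of eIF3, came nearest (-0.29, adjusted p = 0.0508 from edgeR). Of 9 elongation and termination factor genes 1 was lower (11.1%), Eef1b2, the exchange factor of eEF1A, with 1204, 1171 and 1484 normalized counts in TKO, against 1775, 1856 and 1575 in DKO retinae (-0.43, adjusted p = 0.0341 from edgeR). Eef1a1, which carries aminoacyl-tRNA to the ribosome and was the most abundant gene of that list, had 28879, 29522 and 30849 in TKO and 34932, 38884 and 35252 in DKO retinae, with no overlap (-0.29, adjusted p = 0.101 from edgeR). Eef2, the translocase, had 0.01. A list of 20 genes known for TOP mRNAs shares members with the initiation, elongation and biogenesis lists. Its 2 lower genes (10%), Eef1b2 and Npm1, are also calls of the elongation and biogenesis lists, and its median was -0.07.

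Ribosome biogenesis was the translation list with calls in both directions, 2 higher and 2 lower of 66 genes, with a median log2FC of -0.01. Npm1, the nucleolar chaperone nucleophosmin, had 2511, 2602 and 2747 normalized counts in TKO, against 3766, 3799 and 3246 in DKO retinae, with no overlap (-0.46, standard error 0.0909, adjusted p = 0.0142 from edgeR). Nop58, a core protein of the snoRNPs that guide ribosomal RNA methylation, had 567, 582 and 599 in TKO and 832, 846 and 798 in DKO retinae, with no overlap (-0.50, standard error 0.0751, adjusted p = 0.00733 from edgeR). The 2 higher genes, named after their values were seen, were Noc2l (0.35, adjusted p = 0.0267 from edgeR), a nucleolar protein of pre-60S particles, and Las1l (0.33, adjusted p = 0.0346 from edgeR), a nuclease of ribosomal RNA processing. Over all translation lists other than the ribosomal proteins, biogenesis included, 0 genes were called higher and 1 lower in each fit without TKO 1, TKO 2, DKO 1 or DKO 2, against 2 and 3 with all 6 retinae. Ncl, nucleolin, the most abundant gene of the list, had -0.02. Of 15 genes of RNA polymerase I and its factors and of 16 genes of mTORC1 and TOP control, 0 were called in either list, with medians of -0.04 and 0.09. Tsc1, an inhibitor of mTORC1, came nearest, with TKO above DKO and no overlap (0.27, adjusted p = 0.0506 from edgeR).

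**Figure D5:**
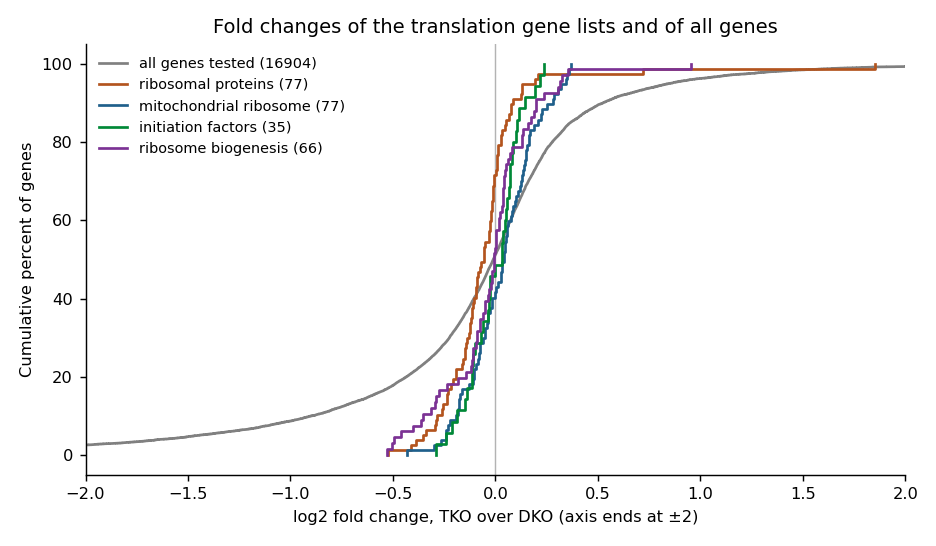
Cumulative percent of genes (y axis) by log2FC, TKO over DKO (x axis, ending at ±2), for the 77 ribosomal protein genes, 3 other translation lists and all 16904 genes tested. The curves of the 4 lists are steep around 0, and that of all genes is broad. The median of the ribosomal protein genes is -0.06 and that of the mitochondrial ribosome 0.04.

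The scaling bears on these counts. With total counts in place of TMM factors, the median log2FC of all genes moved to -0.17 and that of the members to -0.22, and 16 members were called lower and 0 higher. All genes split into 778 higher and 2610 lower on that scale, against 1243 and 1556 with TMM. Relative to the median of all genes, the members lay 0.05 lower on both scales. With relative log expression factors, and with TMM factors computed without the members, 2 members were called lower, as with TMM.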

How the data were processed

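RNA-seq counts were analysed from 3 TKO and 3 DKO retinae, grouped by the sample titles. The values that the authors deposited are raw counts of read pairs per gene symbol, without normalization. The methods name STAR and HTSeq with GRCm38 and at most 3 alignments a read, whereas the labels' processing notes name TopHat2, featureCounts and DESeq2 with mm10 and GRCm38, and the difference was not resolved. The strand setting of the counting was not given in the sources used here, so genes with copies, overlaps or antisense partners are less certain. Both accounts were read, and the counts were used as they stand.

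A gene needed a sum of at least 10 counts. It was then tested with the quasi-likelihood F test and TMM factors of edgeR 4.0.16 (R 4.3.3), with Benjamini-Hochberg adjustment over 16904 genes and no minimum fold change. To give normalized counts, each count was divided by its library's TMM-effective size and multiplied by the mean of those sizes. Standard errors were taken from the F statistic and the log2 fold change, and 95% intervals use the fit's degrees of freedom. The study's 3 criteria also ask for a change of at least 1 in log2 and for a mean of 10 or more normalized counts. DESeq2 1.42.0 was an alternative. Within a genotype, chi-square per degree of freedom between retinae was 8.61 to 25.3, more than counting noise gives, so each retina was 1 sample. Where a count is 0, the upper limit is 3 counts, for counting error only.

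Lengths, coordinates, starts and base composition come from GENCODE vM21 (GRCm38), which matched 22758 of 24062 symbols, and 935 more matched through a RefSeq synonym. For each gene with a protein-coding transcript, the principal, CCDS-supported one of the lowest number was chosen. For Rps4l, which has 0 coding transcripts, Rps4l-201 was used. Shared sequence is the share of 100-base windows of that transcript found on either strand in transcripts of other genes. The text names, by rule, the 3 targeted genes Hells, Rb1 and Rbl1; per subunit the 4 largest means and the 4 smallest p-values in each direction; members ending in l or x with their parents; and of other lists the 3 largest means and 2 smallest p-values. The members and lists were chosen with earlier results of these data known. The skeletal muscle list and a term for sex (Xist above 100 counts) were added after seeing the data. Some genes that the rule names, a called member among them, are not reported here by name or in the plots of members by fold change and by library, but stay in the counts, medians and other plots.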

Additional observations from a re-analysis of the deposited data

How the results depend on the processing

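The members called lower in TKO retinae numbered 2 with the chosen settings (edgeR, adjusted p of at most 0.05), 4 with DESeq2, 16 with total counts only, and 0 at an adjusted p of 0.01 and with the study's 3 criteria. With 1 retina left out they numbered 0 to 5, and 0 were called higher in any fit. The genes of the other translation lists called higher and lower numbered 2 and 3 with the chosen settings, 0 and 30 with total counts only, 0 and 1 at an adjusted p of 0.01, 0 and 0 with the 3 criteria, 0 to 5 and 1 to 6 with 1 retina left out, and 5 were lower with at least 10 counts in every library. Marker genes called higher and lower numbered 19 and 16 with the chosen settings, 9 and 5 at an adjusted p of 0.01, and 8 to 21 and 5 to 19 with 1 retina left out. The median log2 fold change of the members was -0.215 with total counts only and -0.0843 to -0.00868 with 1 retina left out. After the trend on length and GC content was subtracted it was -0.0205, against 0.0865 over all genes. The cause of these changes was not tested, and some of these fits also held fewer retinae.

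The replicate numbers did not pair the retinae, since the correlations of same-numbered deviations were 0.0719, -0.0405 and -0.162. With the replicate block, 0 members and 0 and 0 genes of the other translation lists were called, as were 3 markers higher and 0 lower, and 24 and 82 of all genes, a fit that leaves fewer degrees of freedom.

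Of 32 named genes followed over 478 alternative values, 418 kept their direction and their side of the threshold, 12 lost and 19 gained a call, and 29 changed sign. With total counts only the log2 fold changes that changed sign were -0.03559 for Rbl1, -0.1523 for Rpl7, -0.08189 for Rpl13a, -0.1324 for Rps6, -0.03217 for Rps15, -0.03186 for Rps14, -0.07466 for Rps27a and -0.1523 for Fau. With at least 10 counts in every library they were -0.004829 for Rpl7 and -0.009627 for Fau, and with no low-count filter -0.0001943 for Fau. With sex as a term they were 0.03132 for Rps3, -0.05917 for Fau and 0.005967 for Rpl22l1. With 1 retina left out the log2 fold changes ran on both sides of 0, from -0.1459 to 0.3604 for Rbl1, -0.05451 to 0.07405 for Rpl7, -0.08103 to 0.03693 for Rps3, -0.00312 to 0.05331 for Rps6, -0.4312 to 0.07682 for Rps4l, -0.03956 to 0.06476 for Fau and -0.1348 to 0.009709 for Rpl22l1. The intervals of Rpl34, Rps27 and Rpl3l, with 14, 23 and 36 counts in all, exceed 1.5-fold.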
